A study of Mus musculus with 7 samples.

Results

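A set of 1199 genomic regions had a LEF1 peak in each of 3 LEF1 libraries and no peak in any of 3 TCF1 libraries, out of 38215 merged regions in naive CD8 T cells of the mouse. The regions were chosen by measured peak presence. Distinct peak intervals of the 6 lists on chromosomes 1 to 19 and X were merged where they shared at least 1 bp, and a merged region was kept when all 3 LEF1 lists and no TCF1 list had a peak in it. That choice fixes the direction of the difference between the factors, so the strength and presence values of these regions are given as a description. They are called LEF1-only regions here. The 10887 merged regions with a peak in all 6 lists serve for comparison, together with 1751 regions in all 3 LEF1 lists and 1 TCF1 list and 8184 in all 3 LEF1 lists and 2 TCF1 lists.

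All libraries came from cells of WT genotype carrying the transgenic P14 T cell receptor, isolated from spleen and sorted as CD8+, Ly5.1+, CD44- and CD62L+, the surface phenotype of T cells that have not met antigen. The LEF1 group had 3 libraries made with an antibody to LEF1, and the TCF1 group had 3 made with an antibody to TCF1, the protein of the gene Tcf7. The assay was CUT&RUN on fixed cells, in which a fusion of protein A/G and micrococcal nuclease cuts the DNA around bound antibody. The P14 receptor is a single transgenic receptor, so these T cells are not a diverse natural population. An input control sorted through a CD44+ and Ly5.1- gate is labelled and was not analysed here, nor was the histone mark control that the protocol text mentions. Nothing in the labels tells if replicates are separate animals, and the p-values therefore describe variation among libraries that may be technical.

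LEF1 and TCF1 belong to the HMG-box family and bind closely related DNA letters, a CTTTG core usually followed by an A and then A or T. Both proteins can recruit beta-catenin, the transcriptional arm of Wnt signalling, or corepressors of the TLE family. In T cells they act in thymic development, in CD8 lineage identity and in the upkeep of naive and stem-like memory cells, and their functions overlap there.

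The peak lists held 27654, 37632 and 23695 peaks in LEF1 replicates 1, 2 and 3, and 25616, 22894 and 11418 peaks in TCF1 replicates 1, 2 and 3. Read totals are unknown. List length therefore stands in for depth, and a region is missing from a list when no peak passed the authors' threshold there, which is not the same as no binding. The LEF1-only regions took 4.35% of the peaks of LEF1 replicate 1, 3.20% of replicate 2 and 5.07% of replicate 3.

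Of the 1199 regions, 31 (2.59%) had their peak summit in the promoter window of a protein-coding gene, taken as 250 bases before to 50 bases after an annotated start, against 2225 of the 10887 regions of all 6 lists (20.4%). The 31 summits fell in 33 windows of 31 genes. Of these genes 5 are shown, from RefSeq on GRCm38.p6 and in the direction of the gene, because they carry the strongest such summit (H2-Aa), a lymphocyte receptor (Slamf1), the greatest distance from a region of all 6 lists (Kif18a), a full TCF/LEF match (Slfn8) and the gene with the most LEF1-only regions (Sgms1). Capitals mark CTTTG or its reverse complement.
H2-Aa, chr17:34287774-34288073, minus strand.
H2-Aa: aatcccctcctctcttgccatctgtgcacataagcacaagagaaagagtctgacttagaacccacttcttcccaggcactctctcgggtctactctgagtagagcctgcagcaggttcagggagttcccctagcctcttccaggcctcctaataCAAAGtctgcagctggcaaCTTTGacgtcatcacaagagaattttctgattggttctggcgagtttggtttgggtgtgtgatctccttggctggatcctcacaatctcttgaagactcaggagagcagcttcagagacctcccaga
Slamf1, chr1:171766882-171767181, plus strand.
Slamf1: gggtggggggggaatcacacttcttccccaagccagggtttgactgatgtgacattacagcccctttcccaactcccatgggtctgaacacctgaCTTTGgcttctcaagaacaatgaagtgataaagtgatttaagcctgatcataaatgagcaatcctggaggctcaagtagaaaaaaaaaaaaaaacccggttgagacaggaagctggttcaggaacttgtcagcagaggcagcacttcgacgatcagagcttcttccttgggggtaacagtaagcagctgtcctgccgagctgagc
Kif18a, chr2:109280488-109280787, plus strand.
Kif18a: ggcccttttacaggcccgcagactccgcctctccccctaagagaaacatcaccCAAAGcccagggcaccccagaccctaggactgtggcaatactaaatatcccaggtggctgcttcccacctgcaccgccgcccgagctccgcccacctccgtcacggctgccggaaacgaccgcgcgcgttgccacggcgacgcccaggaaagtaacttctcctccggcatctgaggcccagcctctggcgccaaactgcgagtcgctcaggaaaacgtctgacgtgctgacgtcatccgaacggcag
Slfn8, chr11:83020761-83021060, minus strand.
Slfn8: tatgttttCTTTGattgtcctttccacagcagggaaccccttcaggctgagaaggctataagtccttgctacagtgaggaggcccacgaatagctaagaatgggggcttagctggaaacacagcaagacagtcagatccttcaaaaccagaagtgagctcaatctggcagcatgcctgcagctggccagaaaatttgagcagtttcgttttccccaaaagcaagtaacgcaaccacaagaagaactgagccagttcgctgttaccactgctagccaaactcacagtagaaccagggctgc
Sgms1, chr19:32210964-32211263, minus strand.
Sgms1: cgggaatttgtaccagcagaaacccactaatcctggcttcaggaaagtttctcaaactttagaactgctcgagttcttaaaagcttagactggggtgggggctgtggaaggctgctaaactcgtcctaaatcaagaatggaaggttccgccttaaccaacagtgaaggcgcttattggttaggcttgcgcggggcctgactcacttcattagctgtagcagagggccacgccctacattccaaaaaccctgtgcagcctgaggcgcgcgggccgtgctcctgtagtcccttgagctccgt

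The H2-Aa window, in the promoter of the alpha chain of the MHC class II molecule I-A, held 2 CTTTG matches, which began 96 and 77 bases upstream of the start, and the LEF1 summit lay 59 bases upstream. The nearer match ran into the letters TGACGTCA, which began 74 bases upstream, and a CCAAT match on the reverse strand began 48 bases upstream. MHC class II promoters are known for a cAMP-response-like X2 box and a CCAAT-bearing Y box in this order. The Kif18a window, of a mitotic kinesin gene, also held TGACGTCA, beginning 30 bases after the start, 22 bp from the summit. In the Slamf1 window the single CTTTG match lay 104 bp from the summit, and in the Slfn8 window the CTTTGAT match lay 176 bp from it. The Sgms1 window, at an annotated start well inside the gene span, held no CTTTG, and a CCAAT match on the reverse strand lay 15 bp from the summit.

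Over all 33 windows with a LEF1-only summit, CTTTG on either strand was found in 20 (60.6%, 95% exact binomial interval 42.1 to 77.1%), against 48.2% of the 2561 windows with a summit of a region of all 6 lists and 51.3% of all 21045 protein-coding windows. The longer forms CTTTGAA and CTTTGAT, each of which contains CTTTG, were found together in 3 windows (9.09%, 1.92 to 24.3%), against 9.68% and 7.61%. CTTTGAA alone was in 1 window, against 4.55% of all windows, and CTTTGAT in 2, against 3.25% of all. The intervals of the LEF1-only windows include the shares of both other sets for these letters. The letters GGGCGG, the GC box known from CpG-rich promoters, were in 14 of the 33 windows (42.4%, 25.5 to 60.8%), against 73.4% of the windows held by all 6 lists and 46.7% of all windows. TGACGTCA was in 3 of 33 (9.09%, 1.92 to 24.3%), against 4.26% and 2.26%. Intervals cover counting error only. A match describes the letters of a window and does not mark a bound site.

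The LEF1-only regions were weak LEF1 regions. Fold enrichment is the authors' ratio of the signal at the peak summit to the local background. Its median over the LEF1-only regions was 6.73 in LEF1 replicate 1, 9.23 in replicate 2 and 6.19 in replicate 3, against 21.4, 29.8 and 18.3 in the same libraries over the regions of all 6 lists. The LEF1-only values spanned 3.52 to 20.9 in replicate 1, 3.59 to 29.5 in replicate 2 and 3.03 to 17.1 in replicate 3. LEF1 replicate 2, which has the longest list, gave the highest of the 3 values in 1046 of the 1199 regions (87.2%). The same count is not given for other LEF1 regions, so it cannot be called a trait of this set. Replicate 2 also had the highest of the 3 medians for regions in 1, 2 and 3 TCF1 lists. The -log10 q of the authors was below 5 in at least 1 LEF1 list for 585 regions (48.8%), with 343 in replicate 1, 56 in replicate 2 and 487 in replicate 3.

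**Figure D1:**
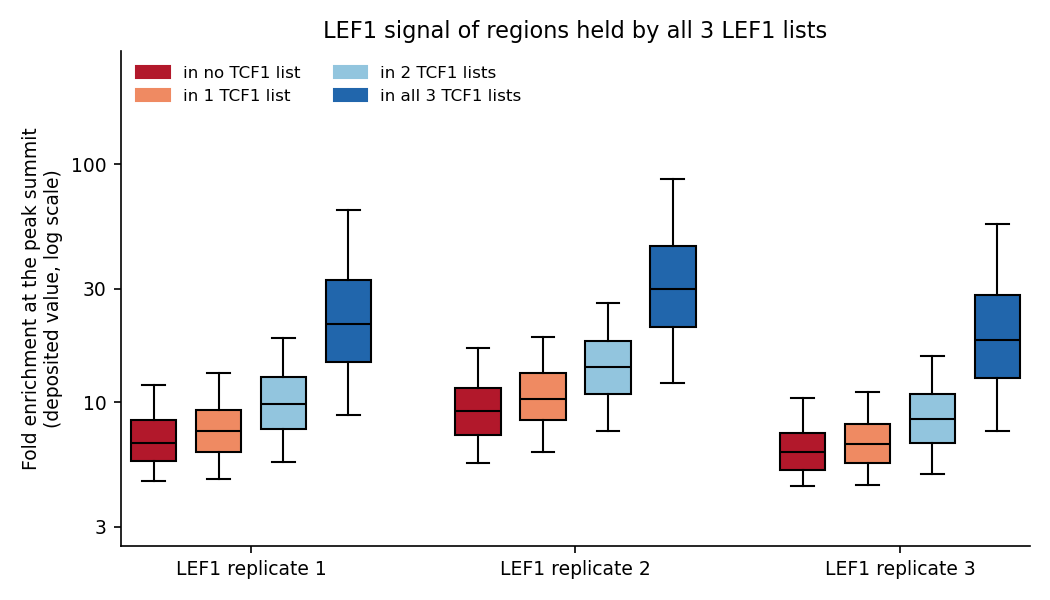
Fold enrichment at the LEF1 peak summit (deposited ratio, log axis) in each LEF1 library for regions of all 3 LEF1 lists, by the number of TCF1 lists that also hold them. Boxes run between quartiles with the median as a line, and whiskers from the 5th to the 95th percentile; in every LEF1 library the medians are lowest for regions in no TCF1 list (6.73, 9.23 and 6.19) and highest for regions in all 3 (21.4, 29.8 and 18.3).

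Each peak was also ranked by fold enrichment within its list, from 0 for the strongest to 100 for the weakest, and the 3 LEF1 percentiles of a region were averaged. The median percentile was 74.8 for LEF1-only regions, against 68.9, 53.4 and 20.1 for regions also in 1, 2 and 3 TCF1 lists. The best LEF1-only region stood at 22.0 and the weakest at 99.0. Among the 5573 regions of all 3 LEF1 lists in the strongest bin of percentiles, up to 20, 0 were absent from all TCF1 lists, and 3 counts of that total, the limit used here for a count of 0, would be 0.0538% (upper end of the 95% exact binomial interval 0.0662%). The share absent from every TCF1 list was 0.738% (41 of 5557) between 20 and 40, 3.57% (185 of 5185) between 40 and 60, 12.8% (548 of 4286) between 60 and 80, and 29.9% (425 of 1420) above 80. The absence of a TCF1 peak thus went with low LEF1 rank, and what part peak calling thresholds have in it was not tested.

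The regions just outside the choice show which lists drew its border. Of the 1751 regions with 1 TCF1 peak, 1344 (76.8%) had it in TCF1 replicate 1, 407 (23.2%) in replicate 2 and 0 in replicate 3, the order of the list lengths. Of the 2486 regions in no TCF1 list that missed exactly 1 LEF1 list, 1912 (76.9%) missed LEF1 replicate 3, the shortest LEF1 list, 542 missed replicate 1 and 32 missed replicate 2. Without TCF1 replicate 1 the rule gave 2550 regions, and without LEF1 replicate 3 it gave 3121. TCF1 replicate 3 removed no region that the other TCF1 lists had not removed. With each list shortened to the 11418 peaks of highest -log10 q, the rule gave 290 regions, and only 16 of the 1199 (1.33%) were among them. Which regions make up the set thus depends on where the lists end.

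The 16 regions that met the rule at both list lengths include 11 of the 12 best ranked. The best by mean percentile was a 445 bp region at chr6:59249674-59250118, outside genes and 37.9 kb from Tigd2. Its fold enrichment was 19.1, 29.5 and 17.1 in LEF1 replicates 1, 2 and 3. The second lay at chr8:107002528-107002819 inside Sntb2, a syntrophin gene, with 20.9, 27.2 and 16.2. Outside genes followed regions nearest to Rsph3a (71.8 kb away), Rubcnl (25.3 kb), Ebag9 (2.06 kb), Slc22a5 (14.4 kb) and Zfp787 (4.24 kb). The H2-Aa region, chr17:34287801-34287992, ranked 8th with 15.9, 23.4 and 14.4. The remaining 4 of the first 12 were nearest to 1110038F14Rik, Acaa2, Purb and Rtn2, and the Purb region was the one that did not meet the rule with shortened lists. The other 5 of the 16 were nearest to Pigp, Rnaseh2c, Zswim6, Tfcp2 and Eif3h, with mean percentiles of 34.4 to 44.9. Of the 12 best, 9 lay outside genes, 1 inside a gene and 2 at a gene end.

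At the weak end, the lowest ranked region lay inside Gpr183, the gene of an oxysterol receptor that guides lymphocyte migration, with fold enrichments of 3.52, 4.48 and 3.03. The LEF1 libraries ordered the LEF1-only regions in a similar but looser way than the regions of all 6 lists: the Spearman rank correlation of fold enrichment between pairs of LEF1 libraries was 0.626 to 0.708 over the 1199 regions and 0.947 to 0.957 over the 10887, as a description over regions that share libraries, the LEF1-only ones within a narrow range of strength. Within regions that held a single peak of each LEF1 list (1189 of 1199), the 3 summits lay within a median of 38 bp, against 23 bp for regions of all 6 lists.

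Position was not used in the choice, and it separated the LEF1-only regions from the shared ones. A summit was called at a gene end when it lay 1 kb or less from the start or the end of a protein-coding gene. That held for 113 LEF1-only regions (9.42%, 95% exact binomial interval 7.83 to 11.2%), against 3362 of the regions of all 6 lists (30.9%, 30.0 to 31.8%). Regions also in 1 or 2 TCF1 lists lay between, with 13.0% and 21.6%. Another 581 LEF1-only summits (48.5%) were inside a gene and 505 (42.1%) outside genes, against 39.7% and 29.4% of regions of all 6 lists. Exons and introns were not told apart, since the gene table gives gene spans. Of the gene ends whose starts are listed, 52 of 93 LEF1-only summits (55.9%, 45.2 to 66.2%) were within 1 kb of a start and 41 at the other end of the gene only, whereas 2532 of 2729 summits of all 6 lists (92.8%) were at a start.

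The difference in position was also seen among regions of like LEF1 rank, where it was wider than over all ranks in the bins above percentile 40 and narrower between 20 and 40. Between percentiles 60 and 80, 41 of 548 LEF1-only regions were at a gene end (7.48%, 5.42 to 10.01%), against 306 of 435 regions of all 6 lists (70.3%, 65.8 to 74.6%). Above 80 the shares were 11.3% (48 of 425) and 78.7% (59 of 75). Between 40 and 60 they were 9.73% and 49.0%, and between 20 and 40 they were 14.6% (6 of 41) and 31.5%. In the bins from 40 upward the LEF1-only shares varied between 7.48 and 11.3% while those of the regions of all 6 lists were higher in each weaker bin. Weak LEF1 regions that all TCF1 lists also held were thus mostly gene-end regions, and weak LEF1 regions that no TCF1 list held were mostly not. With shortened lists, 30 of 290 regions of the rule were at a gene end (10.3%, 7.09 to 14.4%), against 26.3% of the 8174 regions of all 6 lists.

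**Figure D2:**
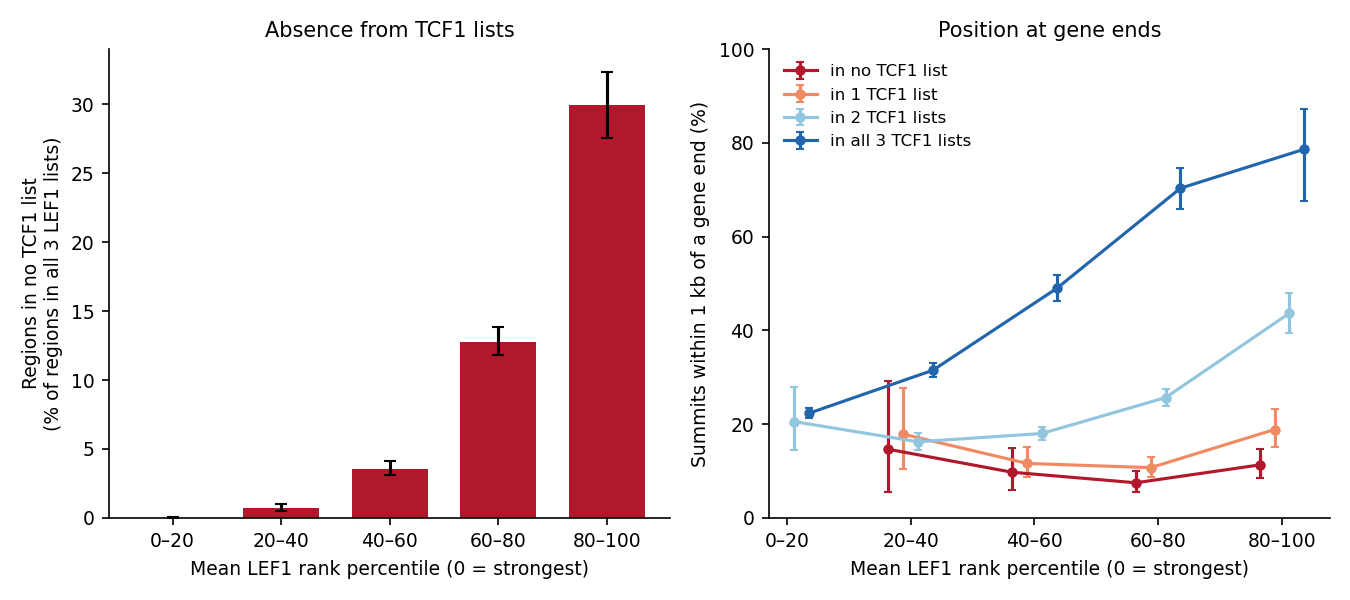
Left, share of regions of all 3 LEF1 lists that are in no TCF1 list, by mean LEF1 rank percentile (0 is the strongest); right, share of summits within 1 kb of a gene end in the same bins, by the number of TCF1 lists (bins under 20 regions left out). Error bars are 95% exact binomial intervals; absence reaches 29.9% in the weakest bin, where 11.3% of regions in no TCF1 list and 78.7% of regions in all 3 TCF1 lists are at gene ends.

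A test over libraries was possible for a related measure that needs no agreement among the LEF1 lists: the position of every peak that overlaps no peak of the other factor. There were 3539, 11649 and 1962 such peaks in LEF1 replicates 1, 2 and 3, and 553, 242 and 8 in TCF1 replicates 1, 2 and 3. Their share at gene ends was 10.8, 11.7 and 11.3% in the LEF1 libraries, against 62.0, 70.2 and 87.5% in the TCF1 libraries, and the groups did not overlap. LEF1 libraries averaged 11.3 ± 0.475% and TCF1 libraries 73.3 ± 13.0% (SD, n = 3 each), a difference of -62.0 percentage points (two-sided exact permutation test over 20 assignments, p = 0.1, the smallest this design can give, and 0.1 after Benjamini-Hochberg adjustment over 3 tests). The peaks were picked by the true factor labels and were not picked anew for each assignment. The p therefore describes only the order of the finished library values. The value of TCF1 replicate 3 rests on 8 peaks, with an interval of 47.3 to 99.7%. With lists of equal length each library had 739 to 1317 such peaks, and the shares were 12.4, 11.8 and 13.4% in LEF1 libraries against 63.2, 59.8 and 60.9% in TCF1 libraries, a difference of -48.8 points (exact permutation p = 0.1). Most LEF1 peaks without a TCF1 peak were thus away from gene ends, and most TCF1 peaks without a LEF1 peak were at them, in each of the 3 libraries of either factor. In the full lists these were weak peaks, with median rank percentiles of 85.0, 79.8 and 87.0 in LEF1 and 91.7, 92.8 and 92.3 in TCF1 replicates 1, 2 and 3. In the full lists they made up 12.8, 31.0 and 8.28% of the LEF1 lists and 2.16, 1.06 and 0.0701% of the TCF1 lists. With lists of equal length that order turned. The shares were then 6.47, 7.06 and 6.97% in LEF1 and 7.50, 7.57 and 11.53% in TCF1 replicates 1, 2 and 3. The larger LEF1 shares of the full lists therefore depend on list length. The gene-end share of all peaks of a library is not given here.

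**Figure D3:**
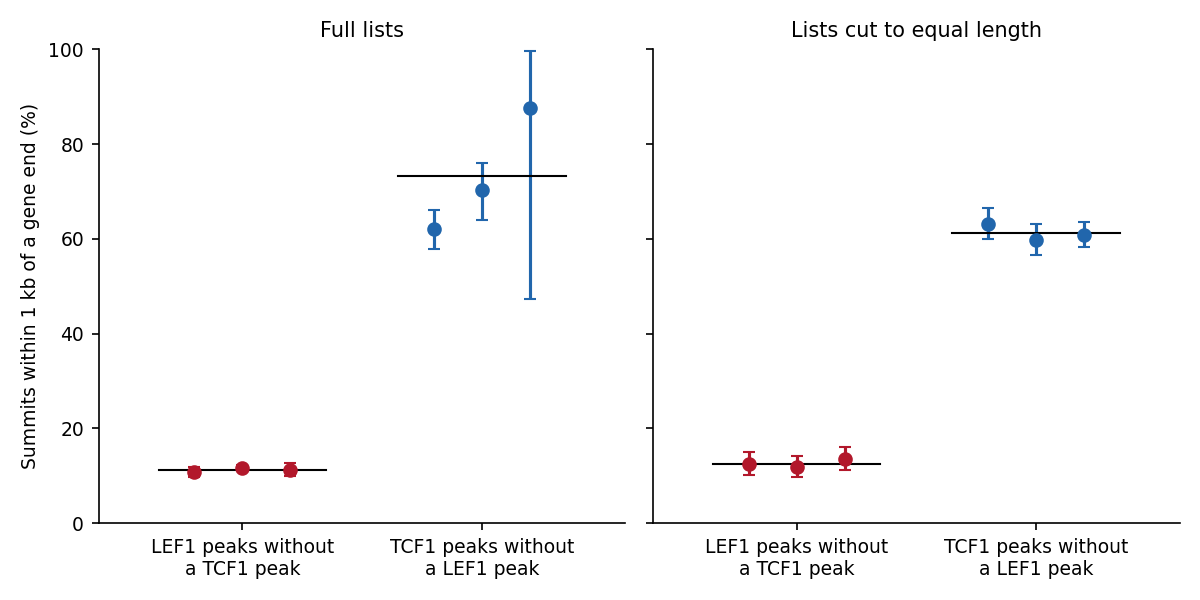
Share of summits within 1 kb of a gene end among peaks that overlap no peak of the other factor, one point per library with its 95% exact binomial interval and the group mean as a line, for the full lists and for lists of equal length. LEF1 libraries sit at 10.8 to 13.4% and TCF1 libraries at 59.8 to 87.5%.

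The LEF1-only regions were narrow. Their median width was 309 bp (quartiles 257 and 384.5 bp, range 151 to 1125 bp), against 346, 433 and 687 bp for regions in 1, 2 and 3 TCF1 lists. A merged region can only widen as more lists contribute. The same order held at like rank, with medians of 303 bp for LEF1-only regions and 569 bp for regions of all 6 lists between percentiles 60 and 80. Matching on rank does not remove the widening, since regions of all 6 lists merge more lists in every bin. Its part in the width difference was not tested. The members' own peaks had median widths of 217, 286 and 209 bp in LEF1 replicates 1, 2 and 3. The spread of LEF1 summits was also smaller at like rank, with medians of 35 bp against 58 bp between percentiles 60 and 80, and 72 bp against 87 bp above 80. The widest LEF1-only region, 1125 bp at chr2:11190413-11191537, lay inside Prkcq, which encodes protein kinase C theta, a kinase of T cell receptor signalling. The other 4 of the 5 widest, of 830 to 980 bp, were inside Ms4a6b, St8sia4, Rassf3 and Gnat1. Median width of peaks without the other factor was 192 ± 9.45 bp in LEF1 libraries and 203 ± 3.69 bp in TCF1 libraries (SD, n = 3 each), a difference of -11.2 bp (exact permutation p = 0.1, adjusted 0.1), which was -0.17 bp without LEF1 replicate 1 and, with its sign turned, 2.92 bp without TCF1 replicate 1.

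Over all ranks, the distance to the nearest region of all 6 lists did not set the LEF1-only regions apart. Its median was 15.0 kb (quartiles 4.04 and 46.9 kb), and regions of all 6 lists were a median of 15.0 kb from the nearest other one. Regions in 1 and 2 TCF1 lists stood at 13.1 and 18.1 kb. By distance, 101 LEF1-only regions (8.42%) lay under 1 kb from a region of all 6 lists, 241 (20.1%) at 1 to 5 kb, 351 (29.3%) at 5 to 20 kb, 338 (28.2%) at 20 to 100 kb and 168 (14.01%) beyond 100 kb. For regions of all 6 lists the shares were 9.05, 20.8, 26.3, 30.1 and 13.8% in the same order. At like rank the medians differed, and LEF1-only regions were closer in each bin from percentile 40 upward. The medians were 16.3 kb for LEF1-only regions against 24.6 kb for regions of all 6 lists between 40 and 60. They were 16.3 against 37.9 kb between 60 and 80, and 12.1 against 44.7 kb above 80. Between 20 and 40, with 41 LEF1-only regions, the order was the other way, at 23.8 against 17.8 kb. A region of all 6 lists depends on the shortest list, and without TCF1 replicate 3 the median distance was 8.49 kb.

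**Figure D4:**
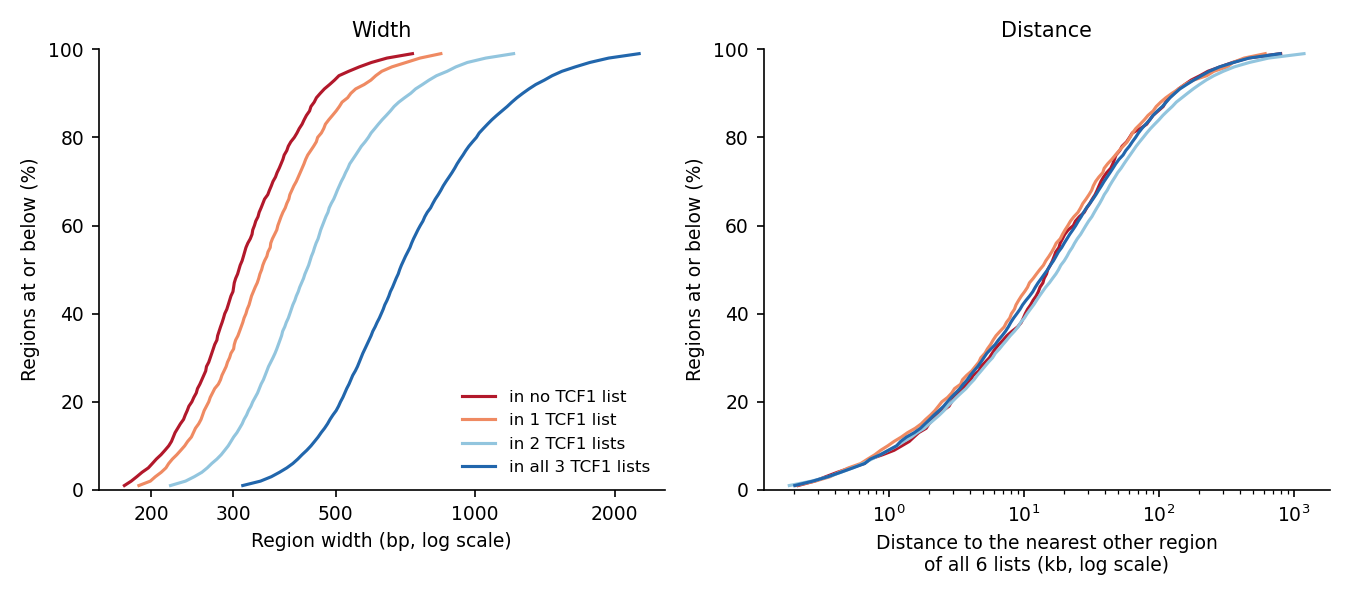
Cumulative share of regions of all 3 LEF1 lists by width (bp, log axis, left) and by distance to the nearest other region of all 6 lists (kb, log axis, right), by the number of TCF1 lists that hold them. Width separates the sets, with medians of 309 bp in no TCF1 list and 687 bp in all 3, while the distance curves lie close together, with medians of 15.0, 13.1, 18.1 and 15.0 kb in 0, 1, 2 and 3 TCF1 lists.

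The nearest peak of any TCF1 library was closer, a median of 5.49 kb away. It lay within 1 kb of 214 LEF1-only regions (17.8%), within 5 kb of 578 (48.2%), within 20 kb of 942 (78.6%) and within 100 kb of 1165 (97.2%). The closest to a region of all 6 lists was 108 bp from it, at chr11:45795622-45796174, and 985 of the 1199 had no TCF1 peak within 1 kb. The farthest was the Kif18a promoter region printed above, at chr2:109280589-109280841, which lay 3229 kb from a region of all 6 lists and 623 kb from any TCF1 peak. Its fold enrichments of 11.1, 15.2 and 7.71 were above the LEF1-only medians. The next farthest were inside Ccser1 (2457 kb), inside Mms22l (2216 kb), near Fgf13 (2200 kb) and inside Mbtps2 (1472 kb). Only the Ccser1 region of these 4 was also over 1000 kb from every TCF1 peak, at 1818 kb, while those of Mms22l and Fgf13 had one at 17.8 and 4.23 kb.

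The 1199 regions had 1031 distinct nearest protein-coding genes, of which 902 had 1 region. For 832 regions (69.4%) the nearest gene also had a region of all 6 lists within 10 kb, and 280 regions (23.4%) had no gene within 10 kb. Counted by gene, 1047 of 21631 protein-coding genes (4.84%) had a LEF1-only region in the gene or within 10 kb, against 7400 (34.2%) with a region of all 6 lists. Of these genes 948 had 1 LEF1-only region, 82 had 2, 13 had 3, 3 had 4 and 1 had 5. A region near neighbouring genes counts for each. Over all genes, 1168 of 23669 links to regions of all 3 LEF1 lists were LEF1-only, or 4.93 per 100.

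Sgms1, which encodes sphingomyelin synthase 1, had the most, with 5 LEF1-only regions among 29 regions of all 3 LEF1 lists, 13 of them in all 6. The Sgms1 region of highest fold enrichment, chr19:32196204-32196690, had 9.30, 15.0 and 6.56 in LEF1 replicates 1, 2 and 3. The region at the internal start printed above had 6.56, 10.1 and 6.85. Arhgef3, a gene of a guanine nucleotide exchange factor, had 4 of 28. Its best region, chr14:27187152-27187390, lay 41.8 kb from a region of all 6 lists with 13.6, 15.8 and 12.2. Map4k4, a kinase gene of stress signalling, had 4 of only 15, and its best region at chr1:39911564-39911894 had 12.2, 16.7 and 9.77. Prkcq had 4 of 21, all weaker, with fold enrichments between 4.49 and 9.61. In all 4 genes the LEF1-only regions were the minority of LEF1 regions, and 6 to 13 regions were in all 6 lists.

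The 13 genes with 3 LEF1-only regions, named here after their counts were seen, included genes of T cell receptor signalling. Fyn, a Src-family kinase, had 3 of 17 LEF1 regions, and Rasgrp1, which activates Ras downstream of the receptor, had 3 of 8. Cd6, the gene of a T cell surface receptor, had 3 of 8, the best at chr19:10831511-10831905 with 9.36, 14.3 and 7.18. Hdac7, of a class IIa histone deacetylase, had 3 of 10. Also among them were Lrrc6, Mbnl1, Mbp, Med12l, P2ry12, Prex1, Ubac2 and Zfand3, and P2ry12 lies in the Med12l span and shares its 3 regions. The Lrrc6 regions were 3 of 6.

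Most LEF1-only regions stood alone. With gaps under 20 kb taken as joined, 1062 (88.6%) had no other LEF1-only region in reach, 104 formed 52 pairs, 21 formed 7 triplets and 12 formed 3 groups of 4. The median distance to the nearest other one was 223 kb. The groups of 4 were those of Map4k4 (38.1 kb long), Sgms1 (41.0 kb) and Prkcq (37.8 kb), with 2, 4 and 6 regions of all 6 lists inside their spans. One of the triplets lay near Ifngr1, which encodes a chain of the interferon gamma receptor. The Ifngr1 group spanned 15.9 kb outside genes, 73.1 to 88.5 kb from the gene, and its best region at chr10:19518726-19519214 had 10.5, 11.4 and 7.21.

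Triplets with no region of all 6 lists in their span were also looked at, after their values were seen, and there were 4. One lay beside Cd69, the gene of an early activation antigen that keeps lymphocytes in tissue, at 4.65 to 12.2 kb from it. It spanned 7.85 kb, and the strongest region, chr6:129260003-129260446, had 6.91, 11.4 and 6.85. One lay between Tmsb4x and Tlr8 on the X chromosome within 7.07 kb, with 9.77, 13.9 and 7.46 at its strongest region. One was that of Rasgrp1, whose first and last regions lay only 0.913 and 0.282 kb from a region of all 6 lists outside the span. The tightest, 2.55 kb at chr14:54203705-54206256, lay in the annotated span of the T cell receptor alpha locus, 29.4 to 31.5 kb from Dad1, with fold enrichments between 4.58 and 8.72.

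The Tcra span (1.80 Mb) held 7 LEF1-only regions of 73 regions of all 3 LEF1 lists, 23 of them in all 6 lists. The other 4 LEF1-only regions of the span were scattered, 308 to 688 kb from Dad1. The Igh span (2.75 Mb), which encodes antibody heavy chains in B cells, held 2 of 30, while the Tcrb span held 0 of 26. In the whole set 1199 of 22021 regions of all 3 LEF1 lists were LEF1-only. On chromosomes 14, 12 and 6, which hold the Tcra, Igh and Tcrb spans, the share was 5.93, 4.44 and 6.45%. These counts are small, and no difference from those shares was tested. Of all 1199 regions, 118 (9.84%) were in a long non-coding RNA gene and in no protein-coding gene. The same share was not counted for other LEF1 regions, so it cannot be called a trait of this set.

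Gene lists of T cell biology were counted next. They were chosen with earlier results of these data known, so their counts describe the lists and support nothing on their own. Genes of a list with many LEF1 regions are bound to have more of any class of them, so each list is given beside its regions of all 6 lists and its LEF1-only regions per 100 regions of all 3 LEF1 lists, which was 4.93 over all genes (1168 of 23669 gene links).

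T cell and CD8 identity genes had the highest share, with a LEF1-only region near 12 of 26 (46.2%, beside 4.84% of all genes), and a region of all 6 lists near 26 of 26. Per 100 LEF1 regions they had 6.90. Besides Cd6 with 3, Runx1, a transcription factor gene of T cell development, and Skap1, an adaptor gene, had 2 each. The Runx1 region at chr16:92698088-92698428 had fold enrichments of 7.64, 10.4 and 4.75 and lay 56.7 kb from a region of all 6 lists. Ets1 had 1, at chr9:32692938-32693258, with 8.82, 13.1 and 8.65 and a TCF1 peak 0.235 kb away. Cd247, Lck, Lcp2, Ikzf1, Ikzf3, Runx3 and Ptprc had 1 each. Bcl11b, a gene of T lineage commitment, and Cd8a had 0 among 17 and 6 LEF1 regions.

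Naive and stem-like T cell genes had a LEF1-only region near 12 of 30 (40%) and a region of all 6 lists near 28. Per 100 LEF1 regions they had 4.96, next to 4.93 for all genes. Bach2, whose product restrains effector differentiation, had 2 of 29, both weak, with fold enrichments between 4.83 and 5.78. Tcf7 itself had 1 of 12, at chr11:52278741-52279385 inside the gene, with 5.99, 8.68 and 5.21 and a TCF1 peak 0.229 kb away. Il7r, the gene of the interleukin 7 receptor on which naive T cells depend, had 1 of 3, at chr15:9535270-9535549, with 8.60, 9.97 and 7.22. Foxp1, a gene of T cell quiescence, had 1 of 43. Cd27, Cd28, Btg1, Klf3, Actn1, Tgfbr2, Themis and Treml2 had 1 each. Lef1 had 0 of 21, Satb1 0 of 17, Ccr7 0 of 10, Slamf6 0 of 4, Id3 0 of 1 and Myb 0 of 1.

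Of the Wnt pathway genes, 4 of 25 (16.0%) had a LEF1-only region and 17 a region of all 6 lists, with 5.102 LEF1-only regions per 100. Znrf3, a ubiquitin ligase gene that limits Wnt receptors, had 2 of 15, and the better, chr11:5369168-5369493, had 9.54, 15.7 and 10.3 at 41.8 kb from a region of all 6 lists. The corepressor genes Tle3 and Tle4 had 1 each, besides Tcf7. Cytokine receptor and signalling genes had one near 8 of 30 (26.7%), with 6.17 per 100. Tnfrsf1b, a TNF receptor gene, had 2 of 11, and Cish, a feedback inhibitor of cytokine signalling, had 2 of 4 with no region of all 6 lists. Il4ra, Il12rb2, Ifnar1, Jak1, Stat5b and Smad3 had 1 each.

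Effector and exhaustion genes had a LEF1-only region near 2 of 31 (6.45%, close to the 4.84% of all genes), while 20 had a region of all 6 lists, with 3.06 per 100. Those were Tox, a transcription factor gene of exhausted T cells, with 2 of 11, and Tnf with 1. The stronger Tox region, chr4:6969601-6969918, had 9.90, 10.7 and 9.72, and it lay 0.411 kb from a region of all 6 lists. The Tnf region had its summit 90 bases upstream of the start, with 7.11, 11.03 and 5.88. Prdm1 had 0 of 6 and Id2 0 of 1. Homing and adhesion genes had one near 3 of 23 (13.0%, 4.12 per 100). Among them Gpr183 had 2 of 9 and Icam2 had 1 of 2.

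**Figure D5:**
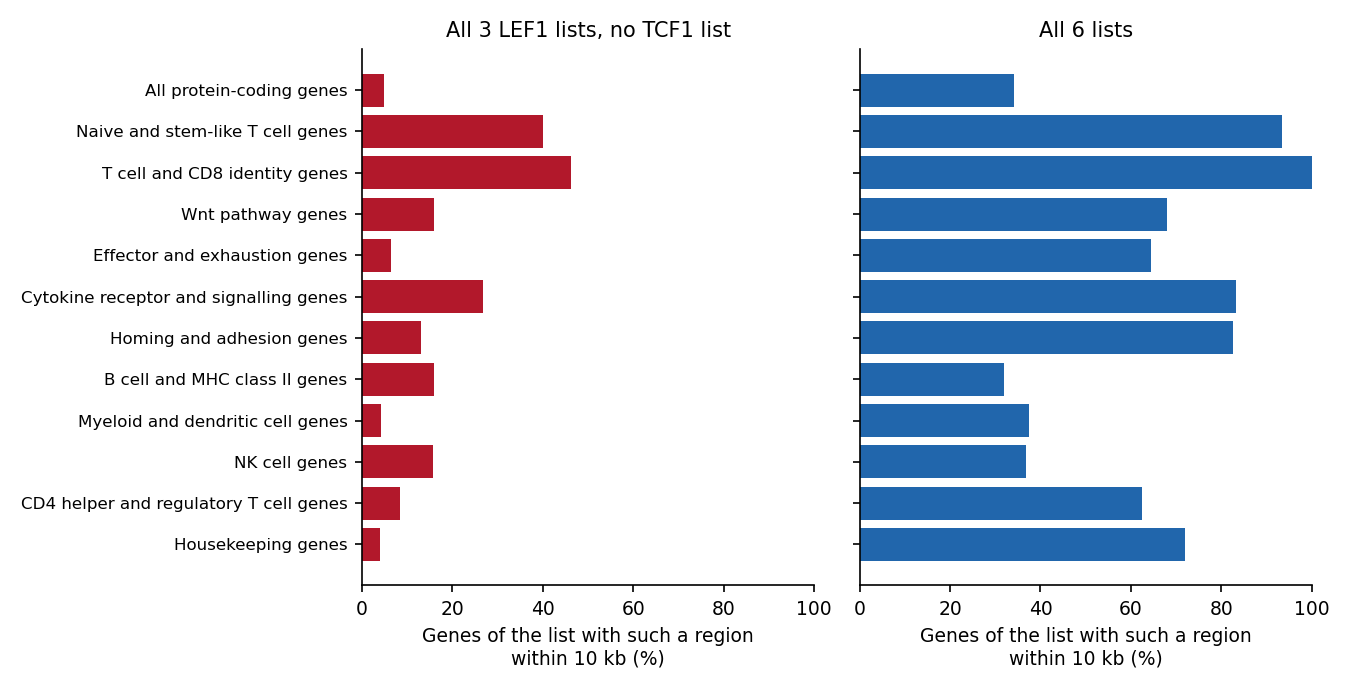
Share of the genes of each list with a region within 10 kb, for LEF1-only regions (left) and regions of all 6 lists (right). T cell identity genes reach 46.2% and 100%, and all protein-coding genes 4.84% and 34.2%.

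Lists of cell types outside the sort gate had fewer LEF1 regions than the T cell identity list. The B cell, NK cell and myeloid lists had 35, 36 and 30 links, against 261. Their spans were also shorter, at 1.73, 0.814 and 1.07 Mb, against 2.36 Mb. The shares of their genes with a region of all 6 lists were 32.0, 36.8 and 37.5%, near the 34.2% of all protein-coding genes. B cell and MHC class II genes had a LEF1-only region near 4 of 25 (16.0%) and a region of all 6 lists near 8. Of its 35 LEF1 links 4 were LEF1-only, 11.4 per 100. Besides H2-Aa, the genes were H2-DMa, H2-Eb2 and Fcer2a, with fold enrichments between 4.56 and 13.7. The H2-Eb2 region was nearest to Btnl2 and the Fcer2a region to Fcor, so both count here only through the 10 kb flank. H2-Aa had 1 LEF1 region in all, the LEF1-only one at its promoter. Elsewhere in the list H2-DMa had 7 LEF1 regions, H2-Eb1, H2-Eb2 and H2-Oa 3 each, H2-Ob and H2-DMb2 2 each and H2-DMb1 1, while H2-Ab1, Cd74 and Ciita had 0. The B cell genes Pax5, Ms4a1 and Cd79b had 0 LEF1-only regions. NK cell genes had one near 3 of 19 (15.8%), with 4 of 36 LEF1 regions (11.1 per 100). Cd226, an activating receptor also found on T cells, had 2 of 5, and Klrd1 and Cd244a had 1 each. CD4 helper and regulatory T cell genes had one near 2 of 24 (8.33%, 2.82 per 100), among them Icos. Myeloid and dendritic cell genes had one near 1 of 24 (4.17%), Xcr1, and housekeeping genes near 1 of 25 (4.00%), Ywhaz, with 1.96 per 100. Whether cells other than the sorted T cells gave part of the H2-Aa signal was not tested.

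Peaks without a peak of the other factor also differed between factors in their distance to the nearest region of all 6 lists. The medians were 14.2, 17.8 and 15.1 kb in LEF1 replicates 1, 2 and 3, against 32.1, 46.0 and 47.9 kb in TCF1 replicates 1, 2 and 3. LEF1 libraries averaged 15.7 ± 1.85 kb and TCF1 libraries 42.0 ± 8.63 kb (SD, n = 3 each), a difference of -26.3 kb (two-sided exact permutation test, p = 0.1, adjusted 0.1). With lists of equal length it was -28.7 kb (p = 0.1 by the same exact test), and it was -10.6 kb without TCF1 replicate 3 and -16.7 kb without LEF1 replicate 2.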

How the data were processed

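The data are CUT&RUN peak lists from 3 LEF1 libraries and 3 TCF1 libraries, grouped and numbered by sample titles. The input control was not used here. The submitters' processing notes name build GRCm38.p6, the aligner Bowtie2 2.4.4, the peak caller MACS3 3.0.3, FastQC 0.12.1 and Trim Galore 0.6.6 for reads, Picard, and deepTools 3.5.1. How the caller was set, with which control and filters, is not given in the sources used here. Peaks were called by the authors per library, per the deposited peak names. Each deposited fold enrichment is a ratio of summit signal to local background. The deposited p-values and q-values are −log10 values, and the deposited score is a whole-number version of the q. The authors' values served only to describe or rank peaks inside each list, or to filter them. How duplicates, repeats and thresholds were handled can affect which peaks are listed, and this was not tested.

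From these lists distinct intervals were merged (1 bp overlap, chromosomes 1 to 19 and X) with Python 3.11.15, numpy 2.4.6, pandas 2.3.3 and scipy 1.17.1, and figures were drawn with matplotlib 3.10.9. The region summit is that of the LEF1 peak of highest fold enrichment. RefSeq tables of the same build gave 21631 protein-coding genes and the start windows of 17274 of them, and starts on chromosome 18 were not used here. Of 270 listed genes, 269 were found. Shares have 95% exact binomial (Clopper-Pearson) intervals. Exact permutation tests of the finished library values (20 assignments) were adjusted over 3 tests by Benjamini-Hochberg. The code was tested on simulated data.

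The regions, gene lists and tests were chosen with earlier results of these data known. Named were the 12 best ranked regions, genes with at least 4 regions, the 5 largest groups, the 5 farthest and 5 widest regions, the 4 list genes with the most regions and 16 genes of T cell biology; further genes were named after their values were seen, and some genes that the rule names are not reported here. Alternatives were stricter overlap, distance, −log10 q and list length, other gene-end windows, leaving out each library, and a replicate block. Chromosome Y was added after seeing the data.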

Additional observations from a re-analysis of the deposited data

How the results depend on the processing

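The count of 1199 was 981 to 1202 with at least 50% of each peak in the shared LEF1 core, no TCF1 peak within 1 kb, a −log10 q of at least 5, or chromosome Y included (an alternative chosen after seeing the data, with 3 regions on Y). It was 290 with equal list sizes and 1199 to 3121 with 1 library left out. Of the 1199, 614 (51.2%) met the rule at a −log10 q of at least 5. The gene-end share of 9.42% was 14.8% with the core overlap, 4.59% and 16.9% with windows of 0.5 and 2 kb, and 9.42 to 11.9% with 1 library left out. The median width of 309 bp was 444.5 bp with equal list sizes and 256 to 326.5 bp with 1 library left out. The median distance of 15.0 kb was 16.9 kb with the core overlap, 18.5 kb with no TCF1 peak within 1 kb, 18.5 kb at the stricter q, 23.3 kb with equal list sizes, and 8.49 to 15.9 kb with 1 library left out. The causes were not tested.

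Between factors, the gene-end difference stayed between -48.7 and -65.3 percentage points and the distance difference between -10.6 and -32.0 kb with 1 library left out. The width difference ran from -15.0 to 2.92 bp, the sign turning without TCF1 replicate 1. With the replicate block the differences of -62.0 points, -26.3 kb and -11.2 bp each had an exact p of 0.25, the smallest that 3 pairs allow. The labels do not say that same-numbered libraries share an animal or a day, and their library names carry other numbers than the titles. A pairing check over 10887 regions gave correlations of 0.0394, 0.0719 and 0.0929 for same-numbered libraries, all under 0.1. Values for other pairs ran from -0.0839 to 0.0223, so each library went best with its own number, a hint from the data only. These values compare pairings and do not measure how alike LEF1 and TCF1 fold enrichments were.

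The design cannot give a p under 0.1, so the tests say nothing on stability. Read totals are unknown, and list length limits what an absent peak shows. The planned motif counts within regions were not run, as no genome sequence was used.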
